A study of Mus musculus with 42 samples.

Results

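The comparison set 10 chemically induced mouse skin tumours labelled as high-risk papillomas against 6 samples of normal skin, each on a 2-colour oligonucleotide array of 21997 probes. These are the 16 arrays titled as high-risk or normal skin among the 32 of the first array design, in a series of 42. Each array paired the sample's RNA, in Cy3, with a universal mouse reference RNA, in Cy5, so a value here is the log2 ratio of sample to reference after the sign was turned and each array was centred on its median. A value of 0 means that the sample held as much of a transcript, relative to the array's median, as the reference did, and a difference of 1 is a 2-fold change. Levels of different genes cannot be compared on this scale. The question put is how the high-risk tumours differ from skin that was never treated.

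The tumours came from female Sencar mice, a strain bred for sensitivity to skin carcinogenesis, initiated at 7 to 8 weeks of age and treated with DMBA/TPA, and their disease state is given as papilloma. The normal skins are labelled as adult whole tissue with no treatment, and their labels give no strain, sex or age in weeks. Tumour growth, exposure to DMBA and TPA, and any difference of strain or sex therefore cannot be told apart. The full tumour codes of the high-risk arrays all differ. High-risk 1 and 2, 3 and 5, and 6 and 10 nevertheless share a code in the labels. Nothing in the labels says that the samples of a group came from separate animals, so the p-values measure only the spread between samples. That spread was estimated over 31 replicates, which include low-risk papillomas and carcinomas of the same series.

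DMBA, a polycyclic hydrocarbon, forms DNA adducts and typically leaves an activating mutation in Hras in epidermal stem or progenitor cells. TPA activates protein kinase C and drives those cells to proliferate into papillomas, benign outgrowths of thickened epidermis. High-risk papillomas are those with the greater chance of converting to squamous cell carcinoma. Normal adult skin holds hair follicles, sebaceous glands, dermis, fat and muscle beside a thin epidermis, and a piece of tumour holds these in other proportions. In such bulk RNA, fewer cells of a type and less RNA per cell cannot be told apart.

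The arrays were not alike. Normal skin 1 differed from carcinoma 6 of the same series by a median of only 0.064 over 16718 probes (Pearson's r 0.984 across probes). The next closest pair, high-risk 6 and 7, differed by a median of 0.177. Normal skin 1 correlated with the other 5 skins at 0.425 to 0.568, against 0.668 to 0.876 among those 5, so results are given with and without it. The arrays were also clustered by which probes were empty, and fell into sets lettered A to E here. Set A held high-risk 10 and normal skins 3 to 6, set B high-risk 5 and normal skin 2, set C high-risk 6 to 9 and normal skin 1, set D high-risk 1 to 4, and set E none of these 16 arrays. The SD of an array's log2 ratios was 0.454 to 0.785 on the 5 arrays of set C and 1.509 to 1.718 in set D. It was 0.454 to 1.718 in the high-risk group and 0.785 to 1.074 in normal skin, a difference of means that an exact 2-sided permutation test did not call (p = 0.311). The database numbers in the titles also split the groups, with normal skins 3 to 6 at 46051 to 46054, the 2 other skins and 9 tumours at 51371 to 51462, and high-risk 7 at 79156. Both splits were run as blocks.

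Of 18904 probes tested, 948 (5.01%) were called at an adjusted p under 0.05 with limma, 486 higher in the tumours (2.57%) and 462 lower (2.44%). Without normal skin 1 the count was 1405 (7.43%), 696 higher (3.68%) and 709 lower (3.75%), and 924 of the 948 were among them. With the database number range as a block, 83 probes were called (0.439%), 64 of them among the 948, and with the array set as a block 42 (0.222%), 20 higher (0.106%) and 22 lower (0.116%), 30 of them among the 948. Without normal skin 1 the first block gave 859 (4.54%), 216 higher (1.14%) and 643 lower (3.40%), 332 of them among the 948. The second gave 412 (2.18%), 216 higher and 196 lower (1.04%), 220 of them among the 948, so the counts under both blocks depend on that array. High-risk 1 to 4, alone of these groups in set D, add nothing to the difference under the second block. Within the 51371 to 51462 number range, with 9 tumours and 2 skins, 2 probes were called. Set A, with 1 tumour against 4 skins, gave 499 calls and set B, with 1 array of each group, 2. Set C, where normal skin 1 is the lone skin, gave 0 by limma, with 199 at an unadjusted p under 0.05, and there 516 of the 758 measured among the 948 had the same sign. Leaving out normal skin 3, 4, 5 or 6 lowered the count to 438, 465, 466 or 362, and leaving out high-risk 3 lowered it to 611. The median change over all tested probes was -0.004.

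A fixed rule picked 101 called genes, most of them described below, of which 100 also passed without normal skin 1. Some of the 101, such as S100a9 and Txn1, had no value on that array. Without high-risk 3 or normal skin 3, 4, 5 or 6 the number passing was 79, 57, 66, 63 or 50. With the database number block 14 passed, S100a8, S100a9, Stfa1, Rptn, Lama5, Clec3b, Gsn, Gata2, Krt34, Krt71, Chac2, Taf12, Rtkn2 and Prrg2. With the array set block 9 passed, S100a9, Txn1, Elovl5, Fam20c, Krt71, Chac2, Taf12, Rtkn2 and Prrg2. Leaving out normal skin 1 as well, 41 and 34 passed under the blocks, among them Lama3, Il1b, Ppbp, Arg1, Nfe2l2, Srm, Birc5, Mitf, B2m and Psmd12 under both. With the 16 arrays fitted alone 76 passed. With normal skin 1 kept, members passed under a block in the activated epidermis, terminal differentiation, basal layer, hair follicle, sebaceous, dermal, neutrophil, mast cell and antioxidant lists and in no other list.

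**Figure D1:**
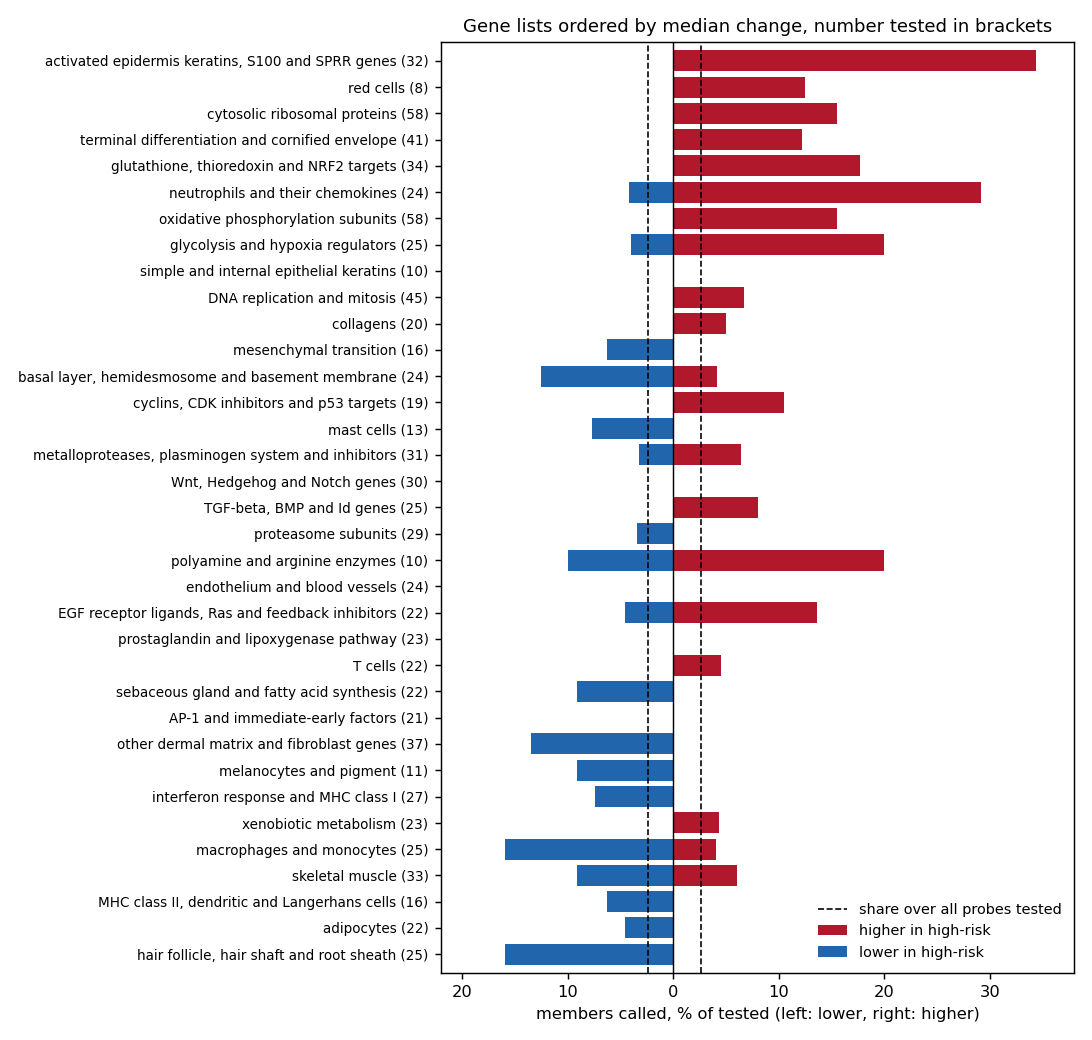
Share of the tested members of each of 35 gene lists called at a limma adjusted p under 0.05, with bars to the right for members higher in high-risk papillomas and to the left for members lower, lists ordered by the median log2 change and the number tested in brackets. The dashed lines mark the shares over all probes, 2.57% higher and 2.44% lower, and activated epidermis has the longest bar to the right, 34.4% of its 32 members.

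The activated epidermis list had rises and no fall in the tumours. Its genes include alarmins of the S100 family, small proline-rich (SPRR) precursors of the cornified envelope, stefins and stress keratins, which are low in resting interfollicular epidermis and high in wounds and hyperplasia. Other members, not called, were Lcn2 and Camp at -1.02 and -0.25 (limma adjusted p = 0.556 and 0.433). Defb3 and Slpi, also not called, were at 3.12 and 1.92 (adjusted p = 0.0668 and 0.148). Of 32 members tested, 11 rose and none fell, 34.4% against 5.01% of all probes, and 28 had a positive change, with a median of 1.33 against -0.004 over all probes. Without normal skin 1, 17 rose. With the database number block 3 rose and with the array set block 1, against 0.101% and 0.106% of all probes called higher. The blocks gave 5 and 8 once normal skin 1 was left out, against 1.14% of all probes under each.

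S100a9, which pairs with S100a8 as the calcium-binding heterodimer calprotectin, changed most. Its values in the 6 tumours where its spot was measured, high-risk 1 to 5 and 10, were 4.00, 4.84, 5.96, 5.82, 4.87 and 4.29. In normal skins 2 to 6 they were 0.21, -1.09, -1.27, -2.05 and -1.89. Every measured tumour lay above every measured skin, and the spot was empty on all 5 arrays of set C. The difference was 6.18 (SE 0.51), a 72.7-fold change (limma adjusted p = 2e-07), and it was 5.64 with the database number block (adjusted p = 1.76e-05) and 5.40 with the array set block (adjusted p = 0.000672).

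S100a8, its partner, was measured on all 16 arrays. The tumours ran from 1.09 in high-risk 6 through a median of 4.70 to 7.24 in high-risk 4, and the skins from -0.58 through 0.16 to 3.71. The value of 3.71 was that of normal skin 1, the other skins reached at most 0.43, and all 10 tumours lay above those 5. The difference was 4.03 (SE 0.69), 16.3-fold (limma adjusted p = 0.00109), and 4.65 without normal skin 1 (adjusted p = 4.87e-05). With the array set block it was 2.77 and the call was lost (adjusted p = 0.155), but leaving out normal skin 1 under that block gave 4.30 (adjusted p = 0.011).

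Stfa1, a stefin that inhibits cysteine proteases, ran from 4.31 through 6.68 to 9.15 in the tumours and from 1.49 through 2.76 to 5.18 in skin, where normal skin 1 was again the highest. The 10 tumours lay above the other 5 skins, which reached 3.20, and the change was 3.52 (SE 0.71, limma adjusted p = 0.00408). Its relative Stfa3 rose by 2.53 (adjusted p = 0.018). Stefins of this cluster are close copies of each other, so an oligonucleotide may read more than its own gene. The calcium-binding S100a11 and S100a6 rose by 1.29 and 1.38 (adjusted p = 0.0162 and 0.0323). S100a6 was measured in only 6 tumours and 5 skins.

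**Figure D2:**
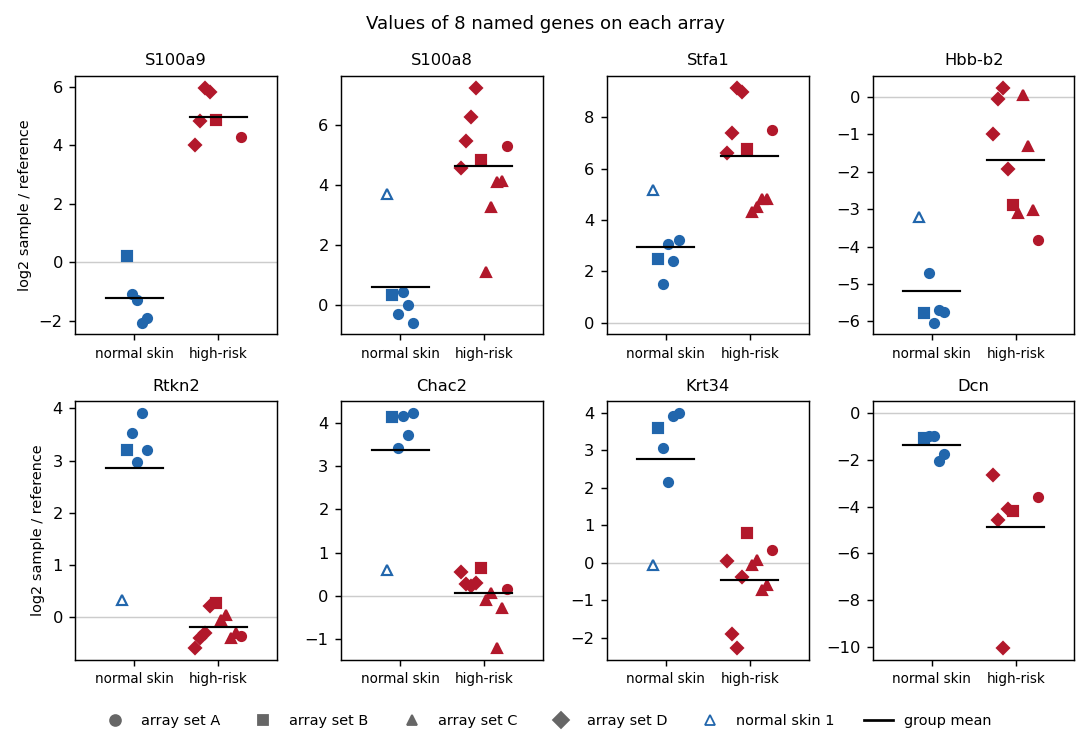
Log2 ratio of sample to reference on each array for 8 genes, normal skin in blue and high-risk papillomas in red, the marker giving the array set, the open triangle normal skin 1 and the line the group mean. The measured tumours lie above normal skins 2 to 6 for S100a9, S100a8, Stfa1 and Hbb-b2 and below them for Rtkn2, Chac2, Krt34 and Dcn. Normal skin 1 is on the tumours' side or between the groups where it was measured. Set C has no values for S100a9 and Dcn.

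The SPRR genes, cross-linked into the envelope by transglutaminases, supplied 5 of the 11 rises. Sprr2b was 1.44 to 3.86 in 6 tumours and -0.29 to 1.21 in 5 skins, without overlap. It rose by 2.10 (SE 0.44, limma adjusted p = 0.00737), with its spot empty on all arrays of set C. Sprr2i was 0.15 to 2.22 in 10 tumours, with normal skin 1 at 0.47 and the other 5 skins at -0.84 to 0.09, and rose by 1.58 (SE 0.35, adjusted p = 0.00788). Sprr1b, Sprr2d and Sprr2k rose by 2.59, 2.37 and 1.81 (adjusted p = 0.018, 0.0361 and 0.0427). Sprr1a (0.74, adjusted p = 0.616) and Sprr3 (-0.21, adjusted p = 0.924) were not called. Sprr2 genes are near copies, so their probes may share signal.

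The promoters of these genes are shown because many hold the motif TGANTCA, the core sequence bound by AP-1, the FOS and JUN dimer that TPA activates. The 250 bases before the start site, 5′ to 3′ on the gene's strand, were taken from RefSeq (GRCm38.p6), using the first listed promoter of each gene, with the motif in capitals. The motif reads the same on both strands. Sprr2b lies at chr3:92316455-92316704 on the plus strand, Sprr2d at chr3:92338890-92339139 plus, Sprr2i at chr3:92407741-92407990 plus and Sprr1b at chr3:92438780-92439029 minus.
Sprr2b: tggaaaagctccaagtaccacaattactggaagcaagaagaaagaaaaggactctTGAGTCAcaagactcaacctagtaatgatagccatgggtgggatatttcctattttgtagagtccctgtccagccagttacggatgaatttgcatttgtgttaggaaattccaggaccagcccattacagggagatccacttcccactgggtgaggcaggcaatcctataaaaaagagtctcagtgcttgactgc
Sprr2d: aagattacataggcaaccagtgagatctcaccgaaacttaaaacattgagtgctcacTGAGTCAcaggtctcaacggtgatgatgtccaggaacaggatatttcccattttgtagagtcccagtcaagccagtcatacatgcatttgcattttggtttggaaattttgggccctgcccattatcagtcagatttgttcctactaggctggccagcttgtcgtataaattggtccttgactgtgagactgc
Sprr2i: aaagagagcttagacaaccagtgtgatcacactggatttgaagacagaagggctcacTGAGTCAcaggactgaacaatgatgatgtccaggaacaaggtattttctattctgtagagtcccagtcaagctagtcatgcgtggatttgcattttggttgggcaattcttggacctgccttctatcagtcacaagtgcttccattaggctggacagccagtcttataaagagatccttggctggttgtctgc
Sprr1b: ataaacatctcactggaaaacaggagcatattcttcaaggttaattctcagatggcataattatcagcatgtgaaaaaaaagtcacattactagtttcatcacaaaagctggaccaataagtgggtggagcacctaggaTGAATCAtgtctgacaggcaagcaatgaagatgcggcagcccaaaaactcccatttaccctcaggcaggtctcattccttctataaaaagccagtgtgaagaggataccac
The motif began 195, 193 and 193 bases before the start in Sprr2b, Sprr2d and Sprr2i and 111 bases before it in Sprr1b. Of the 25 list members with a promoter in the table, 11 held it (44.0%), 9 of them SPRR genes of one cluster on chromosome 3, which share sequence and are not independent. Sprr1a, Sprr2e, Sprr2f, Sprr2h and Serpinb2 were among those 11 and were not called, and Serpinb2 differed by -0.68. Over the tested genes with a promoter the share was 5.96% of 10589. It was 7.84% of the 319 genes called higher and 6.95% of the 259 called lower. S100a8, S100a9 and Stfa1 hold no such letters in this window.

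The stress keratins of the list moved in the same direction without passing the test. Krt6a, Krt6b and Krt16, markers of hyperproliferative epidermis, differed by 1.05, 1.03 and 1.22 (limma adjusted p = 0.405, 0.327 and 0.308). Their means were 4.28, 3.31 and 3.40 in the tumours and 3.23, 2.28 and 2.18 in skin. The list's mean per array, over the members measured on it, was 0.91 to 1.39 in the 4 tumours of set C. It was 2.54 to 3.28 in the other 6 tumours, 0.44 to 1.04 in normal skins 2 to 6 and 1.88 in normal skin 1. S100a9 and Sprr2b were empty on set C and do not enter the means there, so the sets are compared over different members.

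The terminal differentiation list, the proteins of the granular and cornified layers, had 5 of 41 members higher and none lower. That is 12.2% against 5.01% of all probes, and the median change was 0.66. Rptn, a calcium-binding envelope protein of the fused S100 family, was 1.98 to 5.08 in 6 tumours and -0.14 to 1.05 in 5 skins. It rose by 3.91 (SE 0.63, limma adjusted p = 0.00111), with its spot empty on all arrays of set C. The kallikrein proteases Klk6 and Klk8, which take part in shedding of the outermost cells, rose by 3.05 and 2.73 (adjusted p = 0.0207 and 0.0164). Lce3c, a late envelope gene induced by barrier damage, was 1.30 to 6.04 in 10 tumours, -0.10 to 0.39 in 5 skins and 4.37 in normal skin 1. It rose by 2.43 (SE 0.68, adjusted p = 0.0313), and 3.14 without normal skin 1 (adjusted p = 0.00181). Lce1e rose by 2.97 (SE 0.57, adjusted p = 0.00414) but was at -0.16 under quantile normalization between arrays (adjusted p = 0.851), so its direction depends on the scaling.

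The classical differentiation markers did not pass. Flg, filaggrin, differed by 0.54, Krt1 and Krt10, the suprabasal keratins, by 0.87 and 0.58, and Lor, loricrin, by 0.66 (limma adjusted p = 0.641, 0.38, 0.378 and 0.426). Krt5, the basal keratin, was 1.98 to 6.73 in the tumours and 2.24 to 3.44 in skin, above the reference on all 16 arrays, but the sign of the ratios was set so that epidermal genes lie above 0, so this does not check the tissue label. The tumours of set C had list means of 0.77 to 1.87, and the 6 others 2.72 to 3.73, against 0.85 to 2.21 in skin. Rptn and Lce1e had no value on set C and do not enter the means there.

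**Figure D3:**
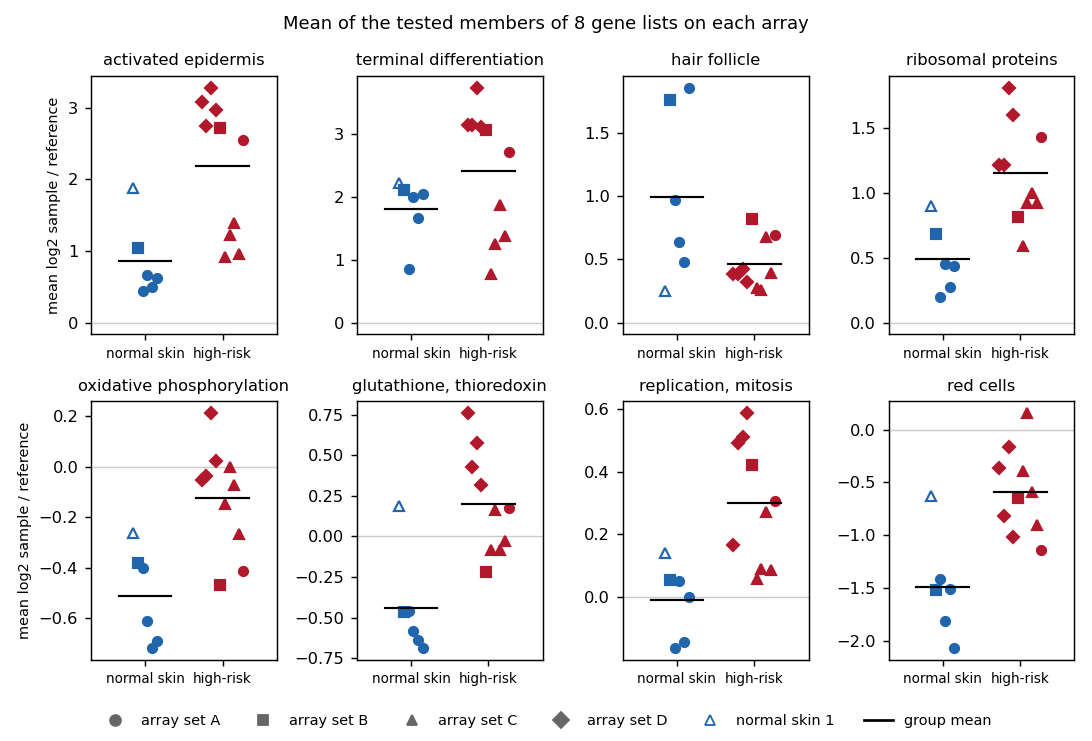
Mean log2 ratio over the measured members of 8 gene lists on each array, normal skin in blue and high-risk papillomas in red, with the marker giving the array set, the open triangle normal skin 1 and the line the group mean. The 4 tumours of set C (triangles) have activated epidermis means of 0.91 to 1.39, below the other 6 tumours at 2.54 to 3.28. S100a9 and Sprr2b, of that list, have no value in set C.

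Basal layer and basement membrane genes went both ways, 1 of 24 higher and 3 lower, 16.7% called against 5.01% of all probes. Krt15, a keratin of quiescent basal and follicle bulge cells, ran from -4.40 through -0.36 to 1.55 in the tumours and from -0.25 through 2.01 to 3.07 in skin. It fell by 2.37 (SE 0.58, limma adjusted p = 0.0161), with 9 of 10 tumours below normal skins 2 to 6. Lama5 and Lama3, laminin chains of the basement membrane, fell by 1.58 and 1.70 (adjusted p = 0.00263 and 0.0249). Lama5 was -0.46 to 0.73 in 8 tumours and 0.91 to 2.07 in 5 skins, without overlap, and kept its call with the database number block (-2.06, adjusted p = 0.00311). Pkp1, a desmosome plaque protein, rose by 2.37 (SE 0.67, adjusted p = 0.0395), but by 1.12 under scale and 1.00 under quantile normalization, where the call was lost (adjusted p = 0.277 and 0.409). Its values came from 6 tumours and 5 skins, with the spot empty on all arrays of set C.

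Of 25 hair follicle genes tested, 4 fell and none rose, where 2.44% of all probes fell. The median change was -0.51, and 8 members had a positive change, up to 1.60 in Foxn1, a factor of hair differentiation (limma adjusted p = 0.164). With the database number and array set blocks 2 and 1 fell, and 5 and 4 without normal skin 1. Krt34, a keratin of the hair shaft, was 3.59, 3.06, 2.14, 3.92 and 3.99 in normal skins 2 to 6. In the tumours it ran from -2.28 through -0.23 to 0.78, and normal skin 1 was at -0.07. The 10 tumours lay below those 5 skins, the fall was 3.24 (SE 0.48, limma adjusted p = 0.000208), and the call held with the database number block (adjusted p = 0.0102) and not with the array set block (adjusted p = 0.0955, or 0.00484 without normal skin 1).

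Krt71, a keratin of the inner root sheath, fell by 2.37 (SE 0.49, limma adjusted p = 0.00693) and passed under both blocks, at -3.14 and -3.80 (adjusted p = 0.00673 and 0.0491). It was -1.52 to 1.00 in 7 tumours and -0.16 to 2.78 in 4 skins, with overlap. High-risk 10 and normal skin 1 had no value. Under the array set block, normal skin 2 was thus the only skin adding to the difference. Krt33a and Krtap8-1, a hair keratin and a keratin-associated protein, fell by 1.71 and 2.34 (adjusted p = 0.0103 and 0.0254). The list's means per array overlapped, at 0.26 to 0.82 in the tumours and 0.48 to 1.86 in normal skins 2 to 6, with 0.25 in normal skin 1.

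Other structures of skin gave few calls. In the sebaceous and fatty acid synthesis list 2 of 22 fell and none rose, 9.09% called against 5.01% of all probes. Elovl5, which elongates polyunsaturated fatty acids, was -1.38 to 0.43 in the tumours and 0.44 to 1.23 in skin, without overlap, and fell by 1.10 (SE 0.26, limma adjusted p = 0.0112). Scd1, the desaturase of sebocytes, fell by 1.38 (adjusted p = 0.0259). Of 22 adipocyte genes 1 fell, 4.55% against 5.01% of all probes, and 5 had a positive change. The one that fell was Lep, the hormone leptin, by 0.90 (SE 0.20, adjusted p = 0.0075). Adipoq, the adipocyte's defining hormone, differed by -0.51 and Fabp4, another member, by 1.46 (adjusted p = 0.781 and 0.168). Without normal skin 1, 1 adipocyte gene rose and 2 fell.

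The 37 dermal matrix and fibroblast genes gave 5 falls and no rise, 13.5% called against 5.01% of all probes. Dcn, the proteoglycan decorin, was -10.06 to -2.67 in 6 tumours and -2.05 to -0.99 in 5 skins, without overlap. It fell by 3.49 (SE 0.97, limma adjusted p = 0.036), with its spot empty on all arrays of set C. Under scale and quantile normalization its change was -2.24 and -2.05 and the call was lost (adjusted p = 0.0593 and 0.0735). High-risk 3 gave the value of -10.06, and the next lowest tumour was at -4.58. Gsn, the actin-severing gelsolin, Clec3b, tetranectin, Ccn2, the matricellular CTGF, and Igfbp3, which binds insulin-like growth factors, fell by 1.68, 1.45, 1.28 and 1.33 (adjusted p = 0.0256, 0.015, 0.0188 and 0.036). Gsn and Igfbp3 were each measured in 6 tumours, none of them in set C. Of 20 collagens 1 rose (5.0%), Col5a3, by 1.86 (adjusted p = 0.044). Col1a1, the main dermal collagen, differed by 0.85 (adjusted p = 0.439). Of 33 skeletal muscle genes 3 fell and 2 rose (15.2%). The rises were Ttn, by 1.14, and Tpm2, by 0.80 (adjusted p = 0.0129 and 0.0373). Tnnc2 fell by 2.23 (adjusted p = 0.0167), and Ckm, not called, differed by -0.855 (adjusted p = 0.171). Acta1, skeletal actin, fell by 3.30 (SE 0.88, adjusted p = 0.0273). Tnnc1, a troponin, fell by 0.93 (adjusted p = 0.0354) and was the one named gene to lose its call without normal skin 1 (adjusted p = 0.0558). Acta2, smooth muscle actin, of the mesenchymal list, fell by 1.94 (adjusted p = 0.0337) and lost its call under quantile normalization (adjusted p = 0.056).

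Of 24 genes on the list of neutrophil genes and chemokines 7 rose and 1 fell, 33.3% against 5.01% of all probes. The rises were S100a8 and S100a9, which neutrophils also express and which are on the activated epidermis list too, and Il1b, Ppbp, Ccl2, Ccl3 and Cxcl1. Il1b, the cytokine interleukin 1 beta, ran from 1.24 through 3.14 to 5.29 in 9 tumours and from -0.92 through 0.23 to 2.83 in skin. All 9 lay above normal skins 2 to 6, which reached 0.56, and Il1b rose by 2.97 (SE 0.63, limma adjusted p = 0.00683). Ppbp, a platelet chemokine, was 0.45 to 1.87 in 6 tumours and -1.0 to -0.33 in 5 skins. It rose by 1.55 (SE 0.30, adjusted p = 0.00408), with its spot empty on all arrays of set C.

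The chemokines Ccl2, Ccl3 and Cxcl1 rose by 1.86, 1.56 and 1.25 (limma adjusted p = 0.0289, 0.0313 and 0.042). The chemokines Cxcl2, Ccl4, Cxcl5 and Ccl7 were not called, at -0.96, -0.38, 0.81 and 0.66 (adjusted p = 0.63, 0.627, 0.388 and 0.145). Fpr2, a formyl peptide receptor of phagocytes, fell by 2.03 (SE 0.47, adjusted p = 0.0118). The granule genes Mpo and Elane and the receptors Csf3r and Cxcr2 had group means between -0.04 and 0.43 and were not called (adjusted p = 0.959, 0.742, 0.79 and 0.397). Ngp, a granule protein, differed by -1.10 (adjusted p = 0.12) and was called without normal skin 1, at -1.34 (adjusted p = 0.0482). The list's mean per array was 0.17 to 1.25 in the tumours, -0.33 to 0.34 in normal skins 2 to 6 and 0.80 in normal skin 1. Whether neutrophils contributed to the S100a8 and S100a9 values was not tested.

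Of 25 macrophage and monocyte genes 1 rose and 4 fell, 20.0% called against 5.01% of all probes. The one that rose was Arg1, arginase, also on the polyamine list, at 1.71 to 5.36 in 9 tumours, -1.03 to 0.85 in normal skins 2 to 6 and 4.27 in normal skin 1. Its change was 2.92 (SE 0.60, limma adjusted p = 0.00511). Trem2, Cx3cr1, Marco and Tyrobp, surface receptors and an adaptor of myeloid cells, fell by 1.75, 1.61, 0.89 and 1.22 (adjusted p = 0.0154, 0.0257, 0.0259 and 0.0349). Lyz2 and Adgre1, which mark macrophages broadly, differed by 0.15 and -1.21 (adjusted p = 0.945 and 0.312).

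Few members passed in the T cell (1 of 22), mast cell (1 of 13), MHC class II (1 of 16), interferon and MHC class I (2 of 27) and melanocyte (1 of 11) lists. Those shares were 4.55% to 9.09% against 5.01% of all probes, so the values below are of single genes. Cd2, an adhesion receptor of T cells, rose by 1.60 (limma adjusted p = 0.0309), whereas Cd3e, which defines them, differed by -0.55 (adjusted p = 0.145). Gata2, a mast cell factor, Ciita, the MHC class II transactivator, and Mitf, the melanocyte factor, fell by 1.69, 0.69 and 1.60 (adjusted p = 0.0174, 0.0404 and 0.015). B2m and Tap1, of MHC class I assembly, fell by 1.33 and 0.96 (adjusted p = 0.0174 and 0.0254). No endothelial gene of 24 was called. Pecam1 differed by -1.03 and Angpt2 by 0.86 (adjusted p = 0.0668 and 0.0586).

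Hbb-b2, a beta globin of red cells, was -3.81 to 0.25 in the tumours with a median of -1.62, and -6.03 to -4.70 in normal skins 2 to 6, with normal skin 1 at -3.20. All 10 tumours lay above those 5 skins and 9 of 10 above all 6. It rose by 3.51 (SE 0.66, limma adjusted p = 0.00235), the lone call among 8 red cell genes (12.5% against 5.01% of all probes). Hba-a1 differed by 1.51 (adjusted p = 0.0676). Globin copies are nearly identical, so the probe may read several.

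Of 58 ribosomal protein genes tested, 9 rose and none fell, 15.5% against 5.01% of all probes. A positive change was found in 57, and the median was 0.76. Rps13 and Rpl41, of the small and large subunit, rose by 1.16 (SE 0.24) and 0.97 (SE 0.21), both at a limma adjusted p of 0.00601. Rpl39, Fau and Rpl27a rose by 1.42, 1.15 and 1.03 (adjusted p = 0.0101, 0.0257 and 0.0243). The list's mean was 0.59 to 1.81 in the tumours, 0.20 to 0.68 in normal skins 2 to 6 and 0.90 in normal skin 1. No member passed with either block, or 1 with each once normal skin 1 was left out, and with it kept the medians were 0.25 with the database number and 0.35 with the array set.

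Of 58 subunits of oxidative phosphorylation 9 rose and none fell, 15.5% against 5.01% of all probes, with a median of 0.42. Cox7a2, Cox6a1 and Cox5b, of cytochrome c oxidase, rose by 1.28, 1.51 and 1.00 (limma adjusted p = 0.0048, 0.0106 and 0.0138). Cox6a1 was measured in 6 tumours and 5 skins, none of them in set C. Ndufa4 and Uqcrb, of the respiratory chain, rose by 1.46 and 0.97 (adjusted p = 0.0146 and 0.022). Under both blocks no member passed, and the medians were 0.14 and 0.19. Without normal skin 1, 2 rose and 2 fell under the first block and none passed under the second.

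Of 25 genes of glycolysis and its hypoxia regulators 5 rose and 1 fell, 24.0% called against 5.01% of all probes. Pgam1, phosphoglycerate mutase, was -0.36 to 1.07 in the tumours and -1.47 to -0.76 in normal skins 2 to 6, with normal skin 1 at 0.06, and rose by 1.27 (SE 0.31, limma adjusted p = 0.0138). Ldha, lactate dehydrogenase, Pfkl, phosphofructokinase, and Pgk1, phosphoglycerate kinase, rose by 1.23, 0.96 and 1.59 (adjusted p = 0.0255, 0.0285 and 0.035). Pgk1 was measured in 6 tumours and 5 skins, none of them in set C. Pkm, pyruvate kinase, fell by 1.66 (SE 0.40, adjusted p = 0.015).

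Of 34 antioxidant genes 6 rose and none fell, 17.6% against 5.01% of all probes, with a median of 0.61. Txn1, thioredoxin, had no value on set C and was 1.68 to 4.20 in 6 tumours and 0.01 to 1.10 in 5 skins, without overlap. It rose by 2.72 (SE 0.52, limma adjusted p = 0.00394), 2.77 with the array set block (adjusted p = 0.0411) and 2.63 with the database number block (adjusted p = 0.0525). Nfe2l2, the NRF2 factor that drives many of these genes, ran from 0.33 through 1.75 to 3.00 in the tumours, with normal skin 1 at 1.85 and the other skins at -1.08 to 0.05. It rose by 1.62 (SE 0.40, adjusted p = 0.0167). Prdx1, a peroxiredoxin, Gstm1 and Gsta1, glutathione transferases, and Ugdh rose by 1.18, 1.14, 2.17 and 1.15 (adjusted p = 0.0168, 0.0273, 0.031 and 0.0386). Gsta1 was not called under scale or quantile normalization (adjusted p = 0.0736 and 0.0636).

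Of 45 genes of DNA replication and mitosis 3 rose and none fell, 6.67% against 5.01% of all probes, with a median of 0.25. No member passed with either block. With normal skin 1 left out, 2 rose and 2 fell under the database number block, and 2 rose under the array set block. Birc5, survivin, was -0.20 to 0.74 in the tumours and -1.34 to -0.64 in normal skins 2 to 6, with normal skin 1 at 0.01, and rose by 1.15 (SE 0.22, limma adjusted p = 0.00258). Cdc25c, the phosphatase of mitotic entry, was -0.18 to 0.53 against -0.76 to -0.29 in all 6 skins, without overlap, and rose by 0.73 (adjusted p = 0.0206). Kif11, a spindle motor, rose by 1.07 (adjusted p = 0.0229). Mki67, the usual marker of cycling cells, differed by 1.11 and did not pass (adjusted p = 0.179). The list's mean was higher in all 10 tumours, 0.06 to 0.59, than in normal skins 2 to 6, -0.16 to 0.06, and normal skin 1 was at 0.14.

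In the EGF receptor and Ras list, the pathway that mutant Hras enters, 3 of 22 rose and 1 fell. That is 18.2% called against 5.01% of all probes. Egfr was 1.21 to 2.73 in the tumours and 0.81 to 1.53 in skin and rose by 0.92 (SE 0.23, limma adjusted p = 0.017). Its ligand Tgfa was 1.15 to 3.74 in the tumours, 0.64 to 0.95 in normal skins 2 to 6 and 1.96 in normal skin 1, and rose by 1.19 (SE 0.32, adjusted p = 0.0256). The Ras pathway inhibitor Spred2 rose by 0.80 (adjusted p = 0.0337), and Errfi1, a feedback inhibitor of the receptor, fell by 1.37 (SE 0.37, adjusted p = 0.0277).

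No AP-1 or immediate-early factor of 21 was called. Fos differed by 0.19 and Fosl1 by -0.35 (limma adjusted p = 0.707 and 0.701). Nr4a1 was lower in all 10 tumours than in all 6 skins, -1.0 to -0.30 against -0.23 to 1.04, with a difference of -0.70 that did not pass (adjusted p = 0.0617). None of 23 prostaglandin and lipoxygenase genes passed, and Ptgs2, cyclooxygenase 2, differed by -0.67 (adjusted p = 0.142). In the polyamine list Srm, spermidine synthase, rose by 1.30 and Sms, spermine synthase, fell by 1.06 (adjusted p = 0.00743 and 0.0391), while Odc1, which TPA is known to induce, differed by 0.32 (adjusted p = 0.752).

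Sfn, the 14-3-3 sigma protein of differentiating keratinocytes, was 3.96 to 6.01 in 6 tumours and 0.46 to 3.28 in 5 skins, without overlap. It rose by 2.75 (SE 0.53, limma adjusted p = 0.00398), with its spot empty on the tumours of set C. Under quantile normalization its change was 1.40 (adjusted p = 0.0885). In the same cyclin and p53 list Trp73 rose by 1.29 (adjusted p = 0.0174), and Ccnd1, cyclin D1, differed by 0.81 (adjusted p = 0.188). Of 25 TGF-beta, BMP and Id genes 2 rose, 8.0% against 5.01% of all probes. They were Id1, by 1.26, and Tgfb1, by 1.91 (adjusted p = 0.00778 and 0.0292). Tgfb1 was measured in 5 tumours and 5 skins and on no array of set C. Mmp3, stromelysin 1, rose by 1.54 (SE 0.37, adjusted p = 0.0133), and the inhibitor Timp3 fell by 2.35 (SE 0.70, adjusted p = 0.0435).

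No member passed among 30 Wnt, Hedgehog and Notch genes or 10 simple keratins. Notch2 was -0.69 to 0.64 in the tumours and -1.23 to -0.74 in skin, without overlap, and its difference of 0.81 had a limma adjusted p of 0.0691. Notch3 differed by 1.22, Krt18 by 1.12 and Krt23 by -1.99 (adjusted p = 0.0753, 0.0784 and 0.0905). Psmd12, the lone call of 29 proteasome subunits (3.45% against 5.01% of all probes), fell by 1.90 (SE 0.42, adjusted p = 0.00788). Cyp2b10, the lone call of 23 xenobiotic genes (4.35%), rose by 0.75 (adjusted p = 0.0101).

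Among called genes with a full name measured on all 16 arrays, the largest rise after S100a8 was that of Plg, plasminogen. It was 3.80 (SE 1.10, limma adjusted p = 0.0385). Probes without a gene name and clone, predicted or accession-like names were not ranked. High-risk 2 gave 12.69, the other tumours 2.54 to 7.17, normal skin 1 gave 5.66 and the other skins -0.06 to 1.38. Lif, leukaemia inhibitory factor, rose by 2.15 and Fam162a, a mitochondrial protein induced by hypoxia, by 2.01 (adjusted p = 0.0258 and 0.00788). Senp8, which deconjugates NEDD8, rose by 2.18 (adjusted p = 0.00957). Its tumours were at -1.14 to 0.08 and normal skins 2 to 6 at -3.66 to -2.71, while normal skin 1, at 0.26, lay above all tumours. Rps6kb2, a ribosomal S6 kinase, rose by 2.51, Ly6f, a Ly6 surface antigen, by 2.26, Igkv2-105, an immunoglobulin light chain segment, by 2.23 and Med9os by 2.01 (adjusted p = 0.0093, 0.0142, 0.0123 and 0.0177).

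Rtkn2, Chac2, Taf12 and Prrg2 were among the 12 largest falls of called genes with a full name measured on all 16 arrays. In these 4, picked out after their values were seen, the tumours lay near the reference and normal skins 2 to 6 far above it. In Timp3, by contrast, the tumours were at -4.73 to -0.21 and those skins at -1.01 to 1.43. Rtkn2, a rhotekin, was 3.20, 3.52, 2.98, 3.91 and 3.20 in those skins, and -0.60 to 0.27 in the tumours. Normal skin 1, at 0.32, was above all 10 tumours by a small margin, and the fall was 3.05 (SE 0.34, limma adjusted p = 2.35e-06). With the database number block the change was -2.60 and with the array set block -2.46 (adjusted p = 0.0016 and 0.00947).

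Chac2, which degrades glutathione, was 4.16, 3.42, 4.18, 3.72 and 4.24 in normal skins 2 to 6, 0.59 in normal skin 1 and -1.22 to 0.65 in the tumours. It fell by 3.33 (SE 0.39, limma adjusted p = 6.73e-06). Taf12, a subunit of the general factor TFIID, fell by 3.21 and Prrg2, a membrane Gla protein, by 2.54 (adjusted p = 0.000156 and 4.74e-05). Chac2, Taf12 and Prrg2 also passed under both blocks. Fam20c, a secretory pathway kinase, Tssk6, a testis kinase, Zfp821 and Sypl2 fell by 2.42, 2.59, 2.83 and 2.84 (adjusted p = 0.00152, 0.00258, 0.0121 and 0.0386). In Sypl2, high-risk 1 stood at -8.24 and the other tumours at -1.94 to 0.58.

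A total of 20 probes were called with all arrays, with each block and without normal skin 1, 3 higher and 17 lower. The rises were S100a9, Tmem248 and Tle6, a transcriptional corepressor, with Tmem248 at 1.82 and Tle6 at 1.66 (limma adjusted p = 0.000274 and 0.00263). Among the falls were Emx1, a homeobox gene, at -3.12, Tgm2, tissue transglutaminase, at -3.11, and Col10a1, a collagen of hypertrophic cartilage, at -2.54 (adjusted p = 8.65e-07, 0.00111 and 4.74e-05). Col10a1 was 0.14 to 1.06 in 6 tumours and 1.96 to 3.39 in 5 skins, without overlap, and had no value on set C. The remaining named falls were Chac2, Derl2, Krt71, Med17, Myo1a, Pla2g10, Polm, Prrg2, Rtkn2, Slc12a5 and Taf12, and 3 probes had no single gene name. Normal skin 1 had no value for the 3 rises or for Emx1, Col10a1, Krt71, Derl2, Med17, Pla2g10, Polm and Slc12a5. Nor had it one for a probe without a single gene name. Leaving out that array could not alter the log2 changes of these genes, so it is no test of them. These 20 were picked out after their values were seen.

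**Figure D4:**
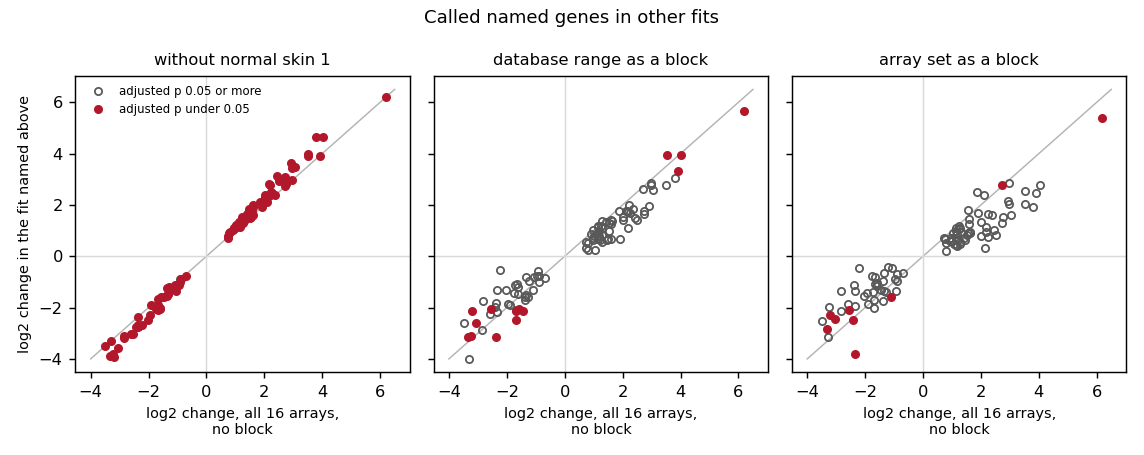
Log2 change of the 101 called named genes with all 16 arrays and no block (horizontal) against the change in another fit (vertical), filled points where the other fit's limma adjusted p was under 0.05 and the line marking equal values. All 101 keep their sign in the 3 fits shown, 100 pass without normal skin 1, 14 with the database range as a block and 9 with the array set as a block.

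Over all probes measured on the 16 arrays, the groups did not overlap for 94 of 7548 (1.25%), 68 higher and 26 lower in the tumours. With normal skin 1 left out it was 371 of 7729 (4.8%), 208 higher (2.69%) and 163 lower (2.11%). Neither share covers genes with empty spots on tumour arrays, such as S100a9, Txn1, Sprr2b and Sfn. Normal skin 1 lay nearer the tumours' mean than that of the other skins for 60.1% of the genes called higher and 74.9% of those called lower. High-risk 5 was the tumour most often nearer the skins, for 40.7% and 33.0% of them.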

How the data were processed

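The authors deposited log2 ratios of the 2 channels, 1 table per array design. Log base, direction, normalization and spot filters are not given in the sources used here. Base 2 was taken because values reached 13.574 in size, and the direction because 16 epidermal genes then had a median above 0 on 16 of 16 arrays and 21 genes of internal organs on none. Reference in Cy5 and sample in Cy3 are per the labels. Signs were turned, arrays centred, and limma 3.58.1 in R 4.3.3 was fitted to 31 replicates of 4 groups (10 high-risk, 6 normal skin, 9 low-risk and 6 carcinoma), with 1 low-risk tumour's 2 arrays averaged. A probe needed 3 values in every group and values in 70% of replicates, with 1 probe per gene symbol, and p-values were adjusted by Benjamini-Hochberg over 18904 probes, with a threshold of 0.05. An array with an empty spot drops out for that gene.

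Of 21997 probes, 16076 had 1 gene symbol, 288 several and 5633 none. The 111 named genes include, per list, up to 5 called members by p or 2 uncalled. The others are the 12 largest rises and falls among called genes with a full name measured on all 16 arrays. Probes without a gene name and clone, predicted or accession-like names were left out of that ranking. Other genes were named after their values were seen. The members and the 35 lists were chosen with earlier results of these data known, and no list was tested. Same-numbered samples did not deviate together (r -0.32 to 0.12 over 6 pairs). The fit was run first on simulated data with 200 changed genes and no effect of array set or database number. It recovered 19% of changes of 1 and 74% of changes of 2, with 3 false calls. The number of arrays limits the precision. Alternatives were other scalings, filters, probe rules, blocks, variance models and sample sets.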

Additional observations from a re-analysis of the deposited data

Results flagged for a closer look

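Of 202 groups of 4 to 10 values of the named genes, 34 held a value far from the rest by Dixon's criterion, which chance alone would meet in about 1 group in 20. Normal skin 1 gave 22 of the 34. It lay above the 5 other skins for S100a8 (3.71), Plg (5.66), Rps6kb2 (-1.45), Lce3c (4.37), Igkv2-105 (1.65), Senp8 (0.26), Lif (0.87), Med9os (2.17), Fam162a (2.01), Arg1 (4.27), Ndufa4 (1.70), Ldha (0.61), Tgfa (1.96) and Gsta1 (2.32). It lay below them for Chac2 (0.59), Taf12 (-0.57), Rtkn2 (0.32), Sypl2 (0.16), Prrg2 (0.48), Lep (0.73), Mitf (-1.08) and Trem2 (-0.48). In each of these 22 genes normal skin 1 was displaced toward the tumours.

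Among the tumours, high-risk 2 stood apart for Plg (12.69) and Mitf (-2.33), high-risk 3 for Dcn (-10.06) and Krtap8-1 (-2.86), and high-risk 10 for Tnnc1 (-1.58) and Trp73 (-2.24). High-risk 1 was low for Sypl2 (-8.24), high-risk 5 for Cox5b (-1.04) and high-risk 8 for Chac2 (-1.22). Of the other skins, normal skin 2 was high for Elovl5 (1.23) and Clec3b (1.81), and normal skin 3 was low for Lama5 (0.91).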

How the results depend on the processing

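The count of 948 called probes was 1572 under scale normalization, 1794 under quantile normalization, 3961 with array weights, 2375 with weights by group, 1734 with the 16 arrays alone and no normal skin 1, and 1892 without the arrays of set C, an alternative chosen after the data were seen. It was 481 of the 5583 probes measured in all 31 replicates, 83 with the database number block, 42 with the array set block, 412 with that block and no normal skin 1, also chosen after the data were seen, 499 within set A, 2 within set B, 2 within the 51371 to 51462 number range, and 0 within set C by limma, where 199 had an unadjusted p under 0.05. Leaving out single replicates gave 362 to 1405. With the replicate number as a block, on the 12 arrays numbered 1 to 6, 27 probes were called, against 745 without it. The numbers do not pair the samples by the labels or by correlation.

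Within set C, where normal skin 1 is the lone skin, 43 of the 101 called named genes kept their sign. Others, such as S100a9, Txn1 and Rptn, had no value there. A further 38 changed sign in set C. There the changes were S100a8 -0.58, Plg -1.56, Stfa1 -0.57, Lce3c -2.31, Igkv2-105 -0.39, Senp8 -0.97, Med9os -0.46, Fam162a -0.74, Klk8 -0.42, Klk6 -1.03, Tpm2 -0.12, Cd2 -0.57, Arg1 -1.72, Il1b -0.33, Kif11 -0.31, Ndufa4 -1.02, Ldha -0.46, Pfkl -0.12, Tgfa -0.30, Nfe2l2 -1.01, Prdx1 -0.15, Gsta1 -2.18 and Mmp3 -0.32 for genes called higher. For genes called lower they were Taf12 0.29, Tssk6 0.23, Krt15 0.47, Timp3 0.77, Krtap8-1 0.01, Krt33a 0.06, Scd1 0.20, Tnnc2 0.09, Mitf 0.95, Trem2 0.23, Cx3cr1 0.11, Fpr2 0.15, Tap1 0.13, Pkm 0.13 and Acta2 0.86. Within set B, with 1 array of each group, 7 changed sign, Ly6f -0.18, Klk8 -0.17, Pkp1 -0.22, Tpm2 -0.02, Fau -0.33, Cox6a1 -0.24 and Cyp2b10 -0.23. Elsewhere the sign turned for Trp73 (-0.33 within set A), Cx3cr1 (0.26 within the 51371 to 51462 range), Lce1e (-0.16 under quantile normalization) and Ttn (-0.11 as the mean of its probes). The cause was not tested. In each other alternative run, a named gene with a value kept its sign.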
